A study of Mus musculus with 12 samples.

Results

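The mouse Gadd45 family consists of the genes Gadd45a, Gadd45b and Gadd45g, and all 3 were found by symbol among the 12955 genes of the deposited expression table. They were followed in primordial germ cell-like cells, an in vitro model of the embryonic cells that give rise to gametes. These cells were made from male J1 embryonic stem cells through embryoid bodies, floating aggregates of differentiating cells, and were sorted with antibodies against CD61 and SSEA1. The 12 libraries of poly(A)-enriched RNA formed 6 groups of 2. At day 2 the groups were dTAG13, treated with dTAG13 for 2 days, and DMSO, given DMSO for 2 days. OE and EV cells were sampled at day 6 and at day 2, and their treatment label reads NA. The labels print OE and EV as letters only; the title of the study names Tex10, whose product works in the nucleus. dTAG13 recruits an E3 ubiquitin ligase to proteins fused to a matching tag, so that these are degraded, and DMSO is the usual solvent. The labels do not say which protein was tagged, whether a line was a single clone, or whether the 2 libraries of a group came from separate cultures, so p-values here measure the spread between libraries, which may be technical. The family was chosen because Gadd45b and Gadd45g differed between the days in their OE-to-EV difference, so the OE and EV values below are descriptions without a test. The dTAG13 and DMSO libraries played no part in that choice and were tested. The mean level of day 6 against day 2 over OE and EV together was also tested; it uses the same 8 libraries as the choice, but in a contrast at right angles to the OE-to-EV differences.

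Gadd45 proteins are small, acidic, mainly nuclear proteins without enzyme activity of their own, which act by binding other proteins. They bind the mitotic kinase complex of Cdk1 and cyclin B1, the replication clamp PCNA and the cell cycle inhibitor p21, they switch on the kinase Map3k4 upstream of p38 and JNK, and they bring repair enzymes to DNA for active loss of cytosine methylation. Gadd45a is a classical target of p53 and Brca1 after DNA damage, Gadd45b answers TGF-beta and NF-kappa B signals, and Gadd45g answers cytokines and in the mouse is needed, through Map3k4 and p38, for the switch to testis development in the gonad. In the embryo, primordial germ cells arrest, resume division and lose most of their DNA methylation.

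All 3 genes are short and have 4 exons in GENCODE M21 on GRCm38 (mm10). Gadd45a lies on chromosome 6 from 67035096 to 67037457 on the minus strand, Gadd45b on chromosome 10 from 80930073 to 80932204 on the plus strand, and Gadd45g on chromosome 13 from 51846678 to 51848468 on the plus strand. By group mean, Gadd45b and Gadd45g were both highest in dTAG13 and day 6 OE and lowest in day 2 OE below. The groups between were ordered differently, and the OE part is the pattern that chose the family. The 250 bases before the RefSeq start of each gene are shown, on GRCm38.p6, 5′ to 3′ on the strand of the gene. The RefSeq starts differ from the GENCODE positions above, so the last 50 bases of the Gadd45a window and the last 18 of the Gadd45b window lie within the GENCODE gene, and the Gadd45g window ends 3 bases before it. Capitals mark the CCAAT box (CCAAT), the TATA box (TATAAA), the E-box CACGTG and the octamer ATTTGCAT, which is a binding sequence of POU factors; both strands were searched, the motifs were chosen after the sequences were seen, and no marked match overlapped another.
Gadd45a, chr6:67037408-67037657, minus strand: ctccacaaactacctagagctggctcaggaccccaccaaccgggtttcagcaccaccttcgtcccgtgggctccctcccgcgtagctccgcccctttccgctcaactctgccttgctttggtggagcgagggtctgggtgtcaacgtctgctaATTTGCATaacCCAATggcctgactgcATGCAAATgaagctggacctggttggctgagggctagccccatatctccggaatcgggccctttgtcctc
Gadd45b, chr10:80929841-80930090, plus strand: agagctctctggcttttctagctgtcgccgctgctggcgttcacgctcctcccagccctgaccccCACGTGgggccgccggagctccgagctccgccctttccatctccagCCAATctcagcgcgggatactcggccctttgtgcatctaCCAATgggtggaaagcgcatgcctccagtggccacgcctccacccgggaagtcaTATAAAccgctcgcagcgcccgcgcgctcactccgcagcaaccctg
Gadd45g, chr13:51846425-51846674, plus strand: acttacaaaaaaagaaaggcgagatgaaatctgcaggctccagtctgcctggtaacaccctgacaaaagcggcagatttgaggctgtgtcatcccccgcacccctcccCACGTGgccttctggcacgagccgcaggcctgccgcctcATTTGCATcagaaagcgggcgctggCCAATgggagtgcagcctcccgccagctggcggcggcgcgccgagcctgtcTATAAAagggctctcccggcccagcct
Counted from the RefSeq start, the Gadd45b and Gadd45g windows both held a TATA box, 46 and 27 bases before the start, and the E-box CACGTG, 185 and 142 bases before it. Neither motif was in the Gadd45a window. The octamer was found in the Gadd45a window, 97 bases before the start and in reverse 70 bases before it, and in the Gadd45g window 103 bases before the start. The CCAAT box was in all 3. Over the 32851 promoter windows of the same length, 33.8% held the CCAAT box, 12.4% the TATA box, 6.02% the E-box and 1.6% the octamer. The G and C content was 59.2% for Gadd45a, 65.2% for Gadd45b and 62.0% for Gadd45g, against a median of 52.4%, and the number of CpG pairs was 11, 22 and 16, against a median of 6. A match is a description of the letters only.

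Values are FPKM, fragments per transcript length and per mapped fragments, which is a level per length and can be compared between genes. Every difference is one of log2(FPKM + 1), a scale on which the change of a low gene comes out too small. The Tex10 transcript read 45.2 and 36.5 FPKM with dTAG13 and 61.7 and 56.8 with DMSO, 259 and 269 FPKM in OE against 65.7 and 81.5 FPKM in EV at day 6, and 403 and 378 FPKM in OE against 119 and 145 FPKM in EV at day 2. The first dTAG13 library listed 2008 genes at 0, against 18 to 127 in the 11 others. Of 9 germ cell markers 8 were in the table, and 7 or 8 averaged at least 1 FPKM in every group; Fut4, the gene behind SSEA1, was not among them. The pluripotency genes Pou5f1, Nanog and Sox2 summed to 829 to 1410 FPKM per library. The markers of other cell types that were in the table were low. Summed endoderm markers (3 of 6 listed) reached at most 8.81 FPKM, mesoderm (3 of 5) 12.3 and neural ectoderm (1 of 4) 2.15. Endothelium and blood (2 of 5) reached 7.84 and fibroblasts (1 of 5) 0.834. The other listed markers had no value, so these sums do not show how pure the cells were.

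The 3 genes were expressed at similar, moderate levels, each in its own order over the groups. Gadd45a, the DNA damage member, ranged from 16.7 FPKM in a day 6 EV library to 47.5 FPKM in a DMSO library. By group mean its order from high to low was DMSO, dTAG13, day 6 OE, day 2 OE, day 2 EV and day 6 EV, and only DMSO with dTAG13 and day 2 EV with day 6 EV overlapped. Gadd45b, the TGF-beta and NF-kappa B member, ranged from 10.4 FPKM in a day 2 OE library to 75.2 FPKM in a day 6 OE library. Its order was day 6 OE, dTAG13, day 6 EV, day 2 EV, DMSO and day 2 OE, with overlap between dTAG13 and day 6 EV and between day 2 EV and DMSO. Gadd45g, the cytokine-answering member, ranged from 9.26 FPKM in a day 2 OE library to 60.3 FPKM in a dTAG13 library. Its order was dTAG13, day 6 OE, DMSO, day 2 EV, day 6 EV and day 2 OE, with overlap between day 2 EV and day 6 EV alone. Day 2 OE was thus the lowest group for Gadd45b and for Gadd45g but not for Gadd45a. In day 6 OE, Gadd45b stood above 87.4 to 87.8% of the genes in the table, and in day 2 OE above 54.5 to 55.8%.

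**Figure D1:**
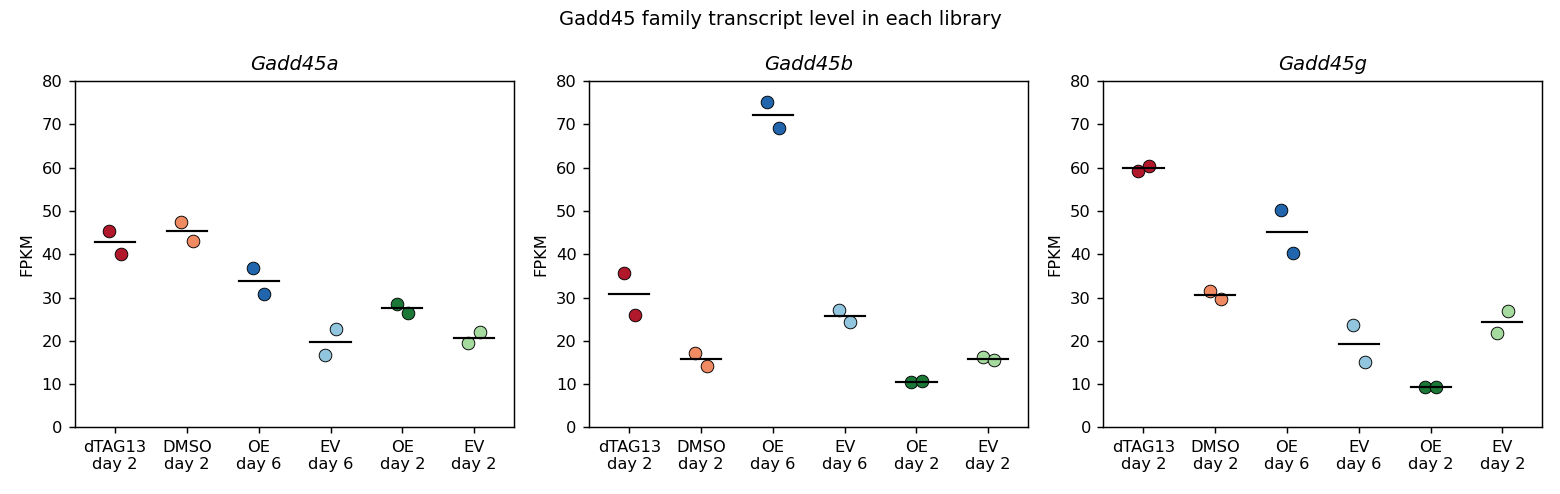
FPKM of Gadd45a, Gadd45b and Gadd45g (y axis, linear, from 0) in each of the 12 libraries (points) by group (x axis), with the mean of the 2 libraries as a line. Gadd45b was highest in day 6 OE at 75.2 and 69.2 FPKM, Gadd45g in dTAG13 at 59.3 and 60.3 FPKM, and both were lowest in day 2 OE.

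With dTAG13 for 2 days, Gadd45b and Gadd45g rose about as much as each other, and Gadd45a did not pass the test. Gadd45b read 35.6 and 26.0 FPKM with dTAG13, against 17.2 and 14.2 FPKM with DMSO. Both dTAG13 libraries lay above both DMSO libraries, and the means were 30.8 ± 6.78 FPKM and 15.7 ± 2.16 FPKM (SD, n = 2 each). The rise was 0.92 (SE 0.17, limma with Benjamini-Hochberg adjustment over 12059 genes, adjusted p = 0.0101), a 1.97-fold ratio of mean FPKM. Gadd45g read 59.3 and 60.3 FPKM with dTAG13, against 31.6 and 29.7 FPKM with DMSO. Its groups were also apart, with means of 59.8 ± 0.682 FPKM and 30.7 ± 1.33 FPKM (SD, n = 2 each), and it rose by 0.94 (SE 0.20, limma, adjusted p = 0.0192), a 1.95-fold ratio. Gadd45a read 45.5 and 40.0 FPKM with dTAG13, against 47.5 and 43.1 FPKM with DMSO, and these libraries overlapped. Its difference of -0.08 (95% interval -0.46 to 0.29, limma, adjusted p = 0.766) does not show that the level was the same. Of the 3 members 2 rose and 0 fell, where 4.01% of all tested genes were called higher, 8.21% lower and 12.2% in either direction.

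The median tested gene stood at -0.127 with dTAG13, and at -0.0019 under quantile normalization. Relative to that median of -0.127 Gadd45b stood at 1.05, Gadd45g at 1.07 and Gadd45a at 0.04. Because the first dTAG13 library listed so many genes at 0, the differences without it are given: 0.70 for Gadd45b, 0.95 for Gadd45g and -0.17 for Gadd45a. That leaves 1 dTAG13 library, so no p is given for them, nor for the next fits, which leave 1 DMSO library. The Gadd45b call was lost without DMSO replicate 2 (0.79), and the Gadd45g call without DMSO replicate 1 (0.98) or replicate 2 (0.90). Both were also lost with only the 2 groups compared in the fit (limma, adjusted p = 0.378 and 0.271), where 0 genes of the whole table passed, and with sample quality weights (limma, adjusted p = 0.305 and 0.509). Over the 10 alternatives other than leaving a library out, the adjusted p in limma ran from 0.00267 to 0.378 for Gadd45b and from 0.0141 to 0.509 for Gadd45g. Neither difference changed sign in these or with a library left out. Markers went both ways with dTAG13. The 8 germ cell markers summed to 254 to 274 FPKM with dTAG13 and 196 to 232 FPKM with DMSO, but only Tfap2c and Dppa3 lay higher in both dTAG13 libraries, while Prdm1, Prdm14, Dnd1 and Kit lay lower in both and Nanos3 and Itgb3 overlapped. The 3 mesoderm markers in the table, of 5 listed, summed to 7.94 to 12.3 FPKM with dTAG13 and 4.97 to 6.54 FPKM with DMSO. Hand1 alone was higher there (7.94 and 10.7 FPKM with dTAG13, against 4.16 and 2.88 FPKM with DMSO), and Mixl1 and Eomes were lower and at 0 in the first dTAG13 library. The endothelial and blood markers in the table, 2 of 5, summed to 6.43 to 7.84 FPKM with dTAG13 and 2.95 to 3.89 FPKM with DMSO, carried by the haemoglobin gene Hba-a1, which has 2 entries, while Kdr was lower at 0 and 0.0816 FPKM with dTAG13, against 0.196 and 0.36 FPKM with DMSO. The neural marker Pax6, 1 of 4 in the table, was lower at 0 and 0.299 FPKM with dTAG13, against 1.13 and 1.35 FPKM with DMSO. Their part in the Gadd45b and Gadd45g values was not tested. In bulk RNA, fewer cells of a type and less RNA per cell cannot be told apart.

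In OE cells Gadd45b and Gadd45g were low at day 2 and high at day 6, each beside EV cells of the same day, and this is the pattern for which the family was chosen. Gadd45g read 50.3 and 40.2 FPKM in day 6 OE, against 23.6 and 15.02 FPKM in day 6 EV, a difference of 1.21. At day 2 Gadd45g read 9.26 and 9.36 FPKM in OE, against 21.7 and 26.9 FPKM in EV, a difference of -1.29. The OE and EV libraries did not overlap on either day, and the 2 day 2 OE libraries were almost equal. Gadd45b read 75.2 and 69.2 FPKM in day 6 OE, against 27.2 and 24.2 FPKM in day 6 EV, a difference of 1.45. At day 2 Gadd45b read 10.4 and 10.7 FPKM in OE, against 16.3 and 15.5 FPKM in EV, a difference of -0.55. Gadd45b was thus less low at day 2 than Gadd45g and higher at day 6, at a ratio of mean FPKM of 2.81 for Gadd45b and 2.34 for Gadd45g. At day 2 the ratios were 0.664 for Gadd45b and 0.382 for Gadd45g.

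Gadd45a did not share the turn between the days. It read 36.8 and 30.9 FPKM in day 6 OE, against 16.7 and 22.8 FPKM in day 6 EV, and 28.4 and 26.5 FPKM in day 2 OE, against 19.5 and 21.9 FPKM in day 2 EV. Both OE libraries lay above both EV libraries on each day, with differences of 0.76 at day 6 and 0.39 at day 2. Without day 6 EV replicate 1 the day 6 difference of Gadd45a was 0.55 and that of Gadd45g 1.52; without day 6 EV replicate 2 they were 0.98 and 0.90. For all tested genes the median was 0.05 at day 6 and 0.04 at day 2. In the table as a whole, 3.72% of tested genes were called for OE at day 6 (1.92% higher, 1.79% lower) and 0.846% at day 2 (0.44% higher, 0.406% lower), and nothing is read from the members beside those shares. The 8 germ cell markers in the table summed to 233 to 243 FPKM in day 6 OE and 144 to 159 FPKM in day 6 EV, and to 157 to 191 FPKM in day 2 OE and 205 to 226 FPKM in day 2 EV. The genes behind the sum differed between the days: at day 6 Tfap2c, Prdm14, Dppa3, Kit and Itgb3 lay higher in both OE libraries and Nanos3 lower, and at day 2 Dnd1, Dppa3 and Kit lay higher and Prdm1, Tfap2c, Prdm14 and Nanos3 lower. Kit read 96.0 and 92.6 FPKM in day 6 OE, against 46.7 and 41.4 FPKM in day 6 EV. The part of these markers in the Gadd45b and Gadd45g values was not tested.

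DMSO and day 2 EV cells, which carry neither the dTAG13 nor the OE label, were set side by side as well. Gadd45a read 47.5 and 43.1 FPKM with DMSO, against 19.5 and 21.9 FPKM in day 2 EV, a difference of 1.09 that was larger in size than that of 99.0% of the tested genes. Gadd45g differed by 0.33, at 31.6 and 29.7 FPKM with DMSO and 21.7 and 26.9 FPKM in day 2 EV, without overlap. Gadd45b differed by -0.02, at 17.2 and 14.2 FPKM with DMSO and 16.3 and 15.5 FPKM in day 2 EV, with overlap. No test was made here, because the day 2 EV level enters both this difference and the OE-to-EV difference that served to choose the family.

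**Figure D2:**
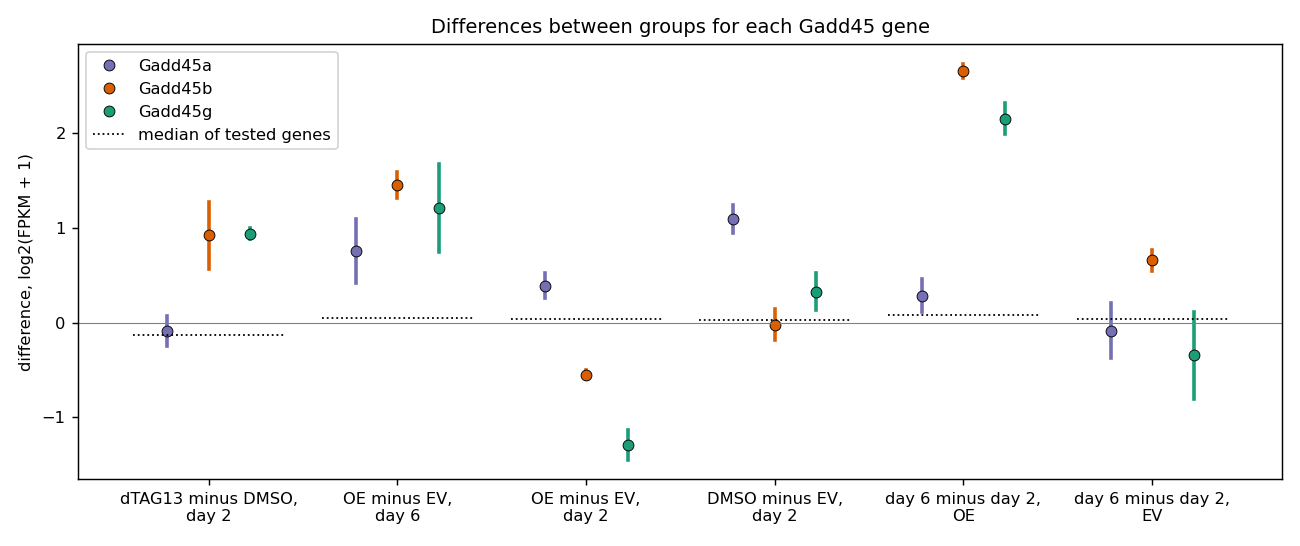
Difference on the log2(FPKM + 1) scale (y axis) between pairs of groups (x axis) for Gadd45a, Gadd45b and Gadd45g; points are differences of the means of 2 libraries, lines run from the smallest to the largest difference between single libraries, and dotted lines give the median of 12059 tested genes. Gadd45b and Gadd45g were above 0 with dTAG13 and in day 6 OE and below 0 in day 2 OE, while Gadd45a stood at 1.09 for DMSO minus EV.

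Averaged over OE and EV, Gadd45b and Gadd45g rose at day 6 against day 2, and Gadd45a did not pass the test. The libraries are those that served to choose the family, so these rises are no separate support for the OE pattern. Gadd45b averaged 48.9 ± 27.0 FPKM at day 6 and 13.2 ± 3.1 FPKM at day 2 (SD, n = 4 each) and rose by 1.66 (SE 0.12, limma, adjusted p = 8.28e-06). Its 4 day 6 libraries, at 24.2 to 75.2 FPKM, all lay above its 4 day 2 libraries, at 10.4 to 16.3 FPKM. Gadd45g averaged 32.3 ± 15.9 FPKM at day 6 and 16.8 ± 8.93 FPKM at day 2 (SD, n = 4 each) and rose by 0.91 (SE 0.14, limma, adjusted p = 0.000751), but its libraries overlapped, at 15.02 to 50.3 FPKM and 9.26 to 26.9 FPKM. Gadd45a averaged 26.8 ± 8.86 FPKM at day 6 and 24.1 ± 4.09 FPKM at day 2 (SD, n = 4 each), a difference of 0.10 (95% interval -0.16 to 0.37, limma, adjusted p = 0.523). Of the 3 members 2 rose and 0 fell, where 24.1% of tested genes were called higher and 43.5% were called in either direction. The rises of Gadd45b and Gadd45g passed under every alternative run, including each left-out library.

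These averages joined unlike groups. In OE cells Gadd45b was 72.2 FPKM at day 6 and 10.6 FPKM at day 2 on average, a difference of 2.66, and in EV cells 25.7 FPKM at day 6 and 15.9 FPKM at day 2, a difference of 0.66. Gadd45b was above its day 2 level in both. In OE cells Gadd45g was 45.2 FPKM at day 6 and 9.31 FPKM at day 2 on average, a difference of 2.16, but in EV cells 19.3 FPKM at day 6 and 24.3 FPKM at day 2, a difference of -0.34 with overlapping libraries. The rise of Gadd45g over the mean of OE and EV was therefore seen in OE cells and not in EV cells, and the difference between them is part of what chose the family. The median tested gene stood at 0.06, and at -0.04 under quantile normalization; relative to the median of 0.06, Gadd45b stood at 1.60 and Gadd45g at 0.84. The 3 endoderm markers in the table, of 6 listed, summed to 6.6 to 8.81 FPKM in day 6 OE and 5.23 to 7.72 FPKM in day 6 EV, against 1.25 to 1.71 FPKM in day 2 OE and 1.32 to 1.75 FPKM in day 2 EV. The 3 mesoderm markers in the table, of 5 listed, summed to 5.82 to 6.17 FPKM in day 6 OE and 5.26 to 5.7 FPKM in day 6 EV, against 2.58 to 3.31 FPKM in day 2 OE and 2.58 to 2.59 FPKM in day 2 EV. The part of both marker sets in the day values was not tested.

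The sum of the family and the share of each member also differed between groups. The summed level was 140.4 and 126 FPKM with dTAG13, against 96.3 and 87.0 FPKM with DMSO. At day 6 it was 162 and 140.3 FPKM in OE, against 67.4 and 62.0 FPKM in EV, and at day 2 it was 48.1 and 46.5 FPKM in OE, against 57.5 and 64.4 FPKM in EV. A different member led in different groups. Gadd45g made up 42.3 and 47.7% of the family with dTAG13, where Gadd45a made up 32.4 and 31.7%; with DMSO, Gadd45a led at 49.3 and 49.6%, and Gadd45g made up 32.8 and 34.2%. Gadd45b made up 46.3 and 49.3% in day 6 OE and 40.3 and 39.1% in day 6 EV, the largest share in each. Gadd45a made up 59.1 and 57.0% in day 2 OE, against 34.0 and 34.1% in day 2 EV, where Gadd45g led at 37.8 and 41.8%. The replicates of a group named the same leading member in all 6 groups.

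**Figure D3:**
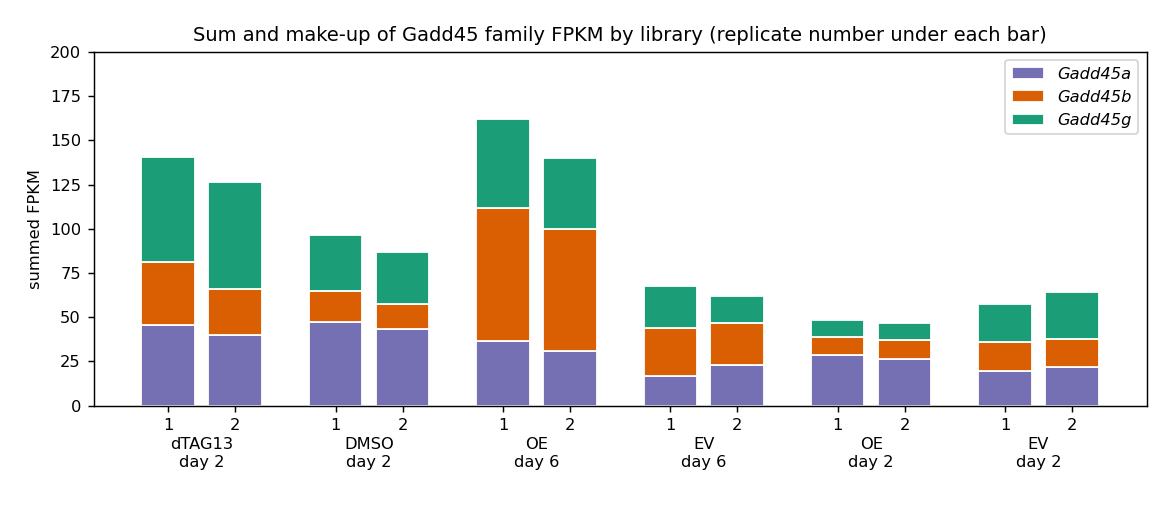
Summed FPKM of the Gadd45 genes (y axis, linear, from 0) in each library, one bar per library with its replicate number, split by gene and grouped by condition (x axis). The bars of day 6 OE (162 and 140.3 FPKM) and dTAG13 (140.4 and 126 FPKM) were the tallest, and those of day 2 OE (48.1 and 46.5 FPKM), mostly Gadd45a, the shortest.

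The genes beside Gadd45a on chromosome 6 were mostly higher in OE and DMSO cells than in EV cells, as Gadd45a was. Of the 10 nearest tested genes, 5 on each side, 9 were higher in OE than in EV at day 6, with a median difference of 0.90, and 9 at day 2, with a median of 0.65; 8 were higher with DMSO than in day 2 EV, with a median of 0.69. The differences of Gadd45a itself were 0.76 and 0.39 in OE and 1.09 with DMSO. Its neighbours ran from -0.29 to 2.01 in day 6 OE, from -0.74 to 1.52 in day 2 OE and from -0.32 to 1.61 with DMSO. Gadd45a lay within these ranges, but with DMSO only Il12rb2 stood above it. Il12rb2 read 2.46 and 2.48 FPKM with DMSO, against 0.111 and 0.172 FPKM in day 2 EV. The next highest neighbour with DMSO was Mad2l1 at 1.02, below Gadd45a. Serbp1, an mRNA-binding protein gene that is the next tested gene (67238176 to 67297736), read 87.4 and 70.1 FPKM in day 6 OE, against 15.5 and 22.4 FPKM in day 6 EV. The Serbp1 difference was 2.01 at day 6 and 1.52 at day 2 in OE, and 0.97 with DMSO. Mad2l1, a spindle checkpoint gene (66535390 to 66547220), read 69.4 and 65.2 FPKM in day 6 OE, against 21.8 and 25.5 FPKM in day 6 EV, and 77.9 and 67.2 FPKM with DMSO, against 32.1 and 38.3 FPKM in day 2 EV. The EV libraries were the low ones for both genes, as for Gadd45a. The part of the neighbourhood in the Gadd45a values was not tested.

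With dTAG13 the picture beside Gadd45a was different: 4 of its 10 neighbours were higher and 6 lower than with DMSO, with a median of -0.08. Beside Gadd45b, which lies among closely packed genes, the median neighbour stood at -0.08 in day 6 OE and 0.21 in day 2 OE, and at -0.28 with dTAG13. The 10 neighbours of Gadd45b stood at 0.011 to 0.487 in day 2 OE against EV, where the median of all tested genes was 0.04. Libraries of some overlapped, as for Lsm7 at 0.011 and Lingo3 at 0.014. Lmnb2, a nuclear lamin gene beside it, differed by 0.04 in day 6 OE, by 0.44 in day 2 OE and by -0.11 with dTAG13. Beside Gadd45g the median neighbour stood at 0.04 in day 6 OE, 0.07 in day 2 OE and -0.13 with dTAG13. Sema4d, a semaphorin gene and the nearest tested gene before Gadd45g, differed by 0.17 in day 6 OE, by -0.24 in day 2 OE and by -0.94 with dTAG13. The OE differences of Gadd45b and Gadd45g were fixed by the choice of the family, so nothing is read from setting them beside their neighbours. With dTAG13, Gadd45b stood at 0.92 and its highest neighbour, Sgta, at 0.10. Gadd45g stood at 0.94 and its highest neighbour, Nxnl2, at 0.905. Nxnl2 read 6.95 and 1.6 FPKM with dTAG13, against 1.08 and 1.83 FPKM with DMSO, so its libraries overlapped and only the first dTAG13 library was high. The next highest neighbour of Gadd45g was Auh at 0.53. Il12rb2 overlaps Serbp1 in the annotation, and whether counting used strand is not given in the sources used here, so its value is uncertain.

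**Figure D4:**
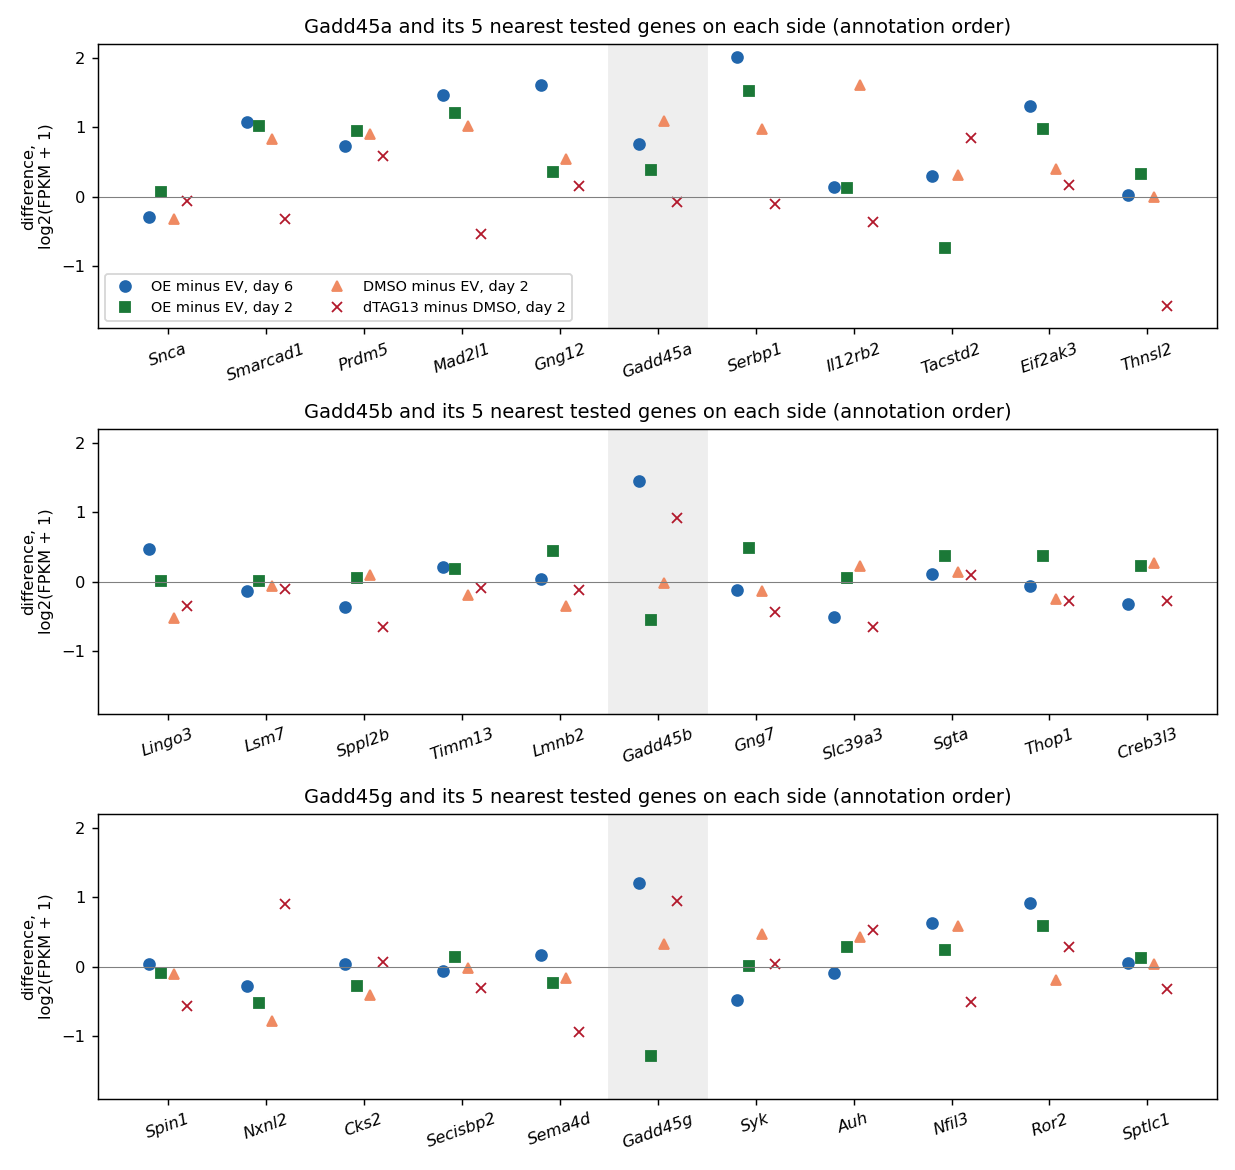
Difference on the log2(FPKM + 1) scale (y axis) of each Gadd45 gene (grey band) and of its 5 nearest tested genes on each side in annotation order (x axis), for OE minus EV at day 6 and day 2, DMSO minus EV, and dTAG13 minus DMSO at day 2. Most genes beside Gadd45a were above 0 against EV (9 of 10 in OE at each day, 8 of 10 with DMSO), and with dTAG13 Gadd45b stood at 0.92 and Gadd45g at 0.94.

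The genes whose levels followed each member most closely were found by Pearson correlation of log2(FPKM + 1) over the 12 libraries, among 7518 named genes averaging at least 5 FPKM. Libraries of a group share their treatment and day, so the correlations describe group differences and carry no p. For Gadd45a these were Rab7, a gene of late endosome traffic (r = 0.93), Xpc, a DNA damage recognition gene (r = 0.91), the nuclear pore gene Tpr (r = 0.90) and the glycosylation gene Rpn1 (r = 0.89). Rab7 (87999106 to 88045270), Rpn1 (88084482 to 88105304) and Xpc (91489305 to 91515888) lie on chromosome 6 like Gadd45a, but not beside it, while Tpr lies on chromosome 1. For Gadd45b they were the fatty acid binding gene Fabp3 (r = 0.97), the lysosomal gene Psap (r = 0.97), the casein kinase gene Csnk1e (r = 0.96) and the p53 target Pmaip1, a cell death gene (r = 0.955). For Gadd45g they were the mitochondrial carrier gene Slc25a20 (r = 0.92), the dynein light chain gene Dynlt1b (r = 0.91), Tdrp (r = 0.90) and the apolipoprotein gene Apoc1 (r = 0.89). Dynlt1b has near-identical copies, so its level is uncertain. Among the members, Gadd45b and Gadd45g had r = 0.695, Gadd45a and Gadd45g 0.54, and Gadd45a and Gadd45b 0.19. Without the first dTAG13 library the r of every gene named here as most like a member stayed at or above 0.86.

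Genes of the pathway were read from lists of partners and regulators. Among growth arrest and DNA damage genes, which answer p53 or stress as Gadd45a does, 8 of 11 rose with dTAG13 and 0 fell, with a median of 1.102 against -0.127 for all tested genes. Mdm2, which restrains p53, read 559 and 328 FPKM with dTAG13, against 93.2 and 78.8 FPKM with DMSO, and rose by 2.31 (SE 0.22, limma, adjusted p = 0.000468). Plk2, a stress kinase gene, rose by 2.00 and Btg2, an antiproliferative gene, by 1.95. In the same libraries Gadd45a stood at -0.08, Gadd45b at 0.92 and Gadd45g at 0.94. The count of called genes in that list was 8 without the first dTAG13 library, 11 without the second, and 6 and 5 without DMSO replicates 1 and 2.

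The other lists are set beside the 4.01% of tested genes called higher and the 8.21% called lower. Some of their counts lay above these shares, but the lists are short, and a count of 1 or 2 is not read as a result about a list. With sample quality weights 4 of the 11 growth arrest and DNA damage genes and 0 genes of the other lists were called, and with only the groups compared 0 genes of any list. Among 6 cell cycle partners, 1 rose with dTAG13: Cdkn1a, which encodes p21, by 1.26 (SE 0.12, limma, adjusted p = 0.000487), at 82.3 and 69.9 FPKM with dTAG13 and 31.4 and 30.6 FPKM with DMSO. Cdk1, Ccnb1, Pcna, Aurka and Npm1 did not pass, although 3 genes of the list were called without the first dTAG13 library. Of 12 genes of the Map3k4, p38 and JNK arm, 0 rose and 1 fell, the p38-activating kinase gene Map2k6, by 1.65 (limma, adjusted p = 0.0172); it was listed at 0 in the first dTAG13 library and stood at -0.99 without it, and its call was lost without DMSO replicate 1 (limma, adjusted p = 0.116) or 2 (limma, adjusted p = 0.104). Without the first dTAG13 library 2 genes of this arm were called and without the second 9. Of 12 DNA demethylation and base excision genes, 1 rose and 2 fell: Xrcc1, a scaffold of single-strand break repair, rose by 0.995 (limma, adjusted p = 0.0018). Tet1, which oxidizes methylated cytosine, fell by 0.74 (limma, adjusted p = 0.0314), a call that was lost without DMSO replicate 1 (limma, adjusted p = 0.134) or 2 (limma, adjusted p = 0.181). The count of called genes in the list was 1 without DMSO replicate 1 or 2 and 9 without the second dTAG13 library. Of 13 upstream regulators 3 rose and 2 fell, with Atf3, a stress transcription factor gene, up by 1.95 (SE 0.28, limma, adjusted p = 0.00341) and Trp53 itself at 0.21 (limma, adjusted p = 0.263). In that list 1 gene was called without DMSO replicate 1 or 2, and 10 without the second dTAG13 library. Of 5 nuclear receptor partners 2 fell, the retinoic acid receptor genes Rara and Rarg, and 0 of 8 relatives that share the L7Ae RNA-binding fold with Gadd45 proteins passed, although 2 of the 8 were called without the first dTAG13 library and 2 without the second. The 2 receptor calls were lost without DMSO replicate 1 or 2, and 4 of the 5 partners were called without the second dTAG13 library.

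**Figure D5:**
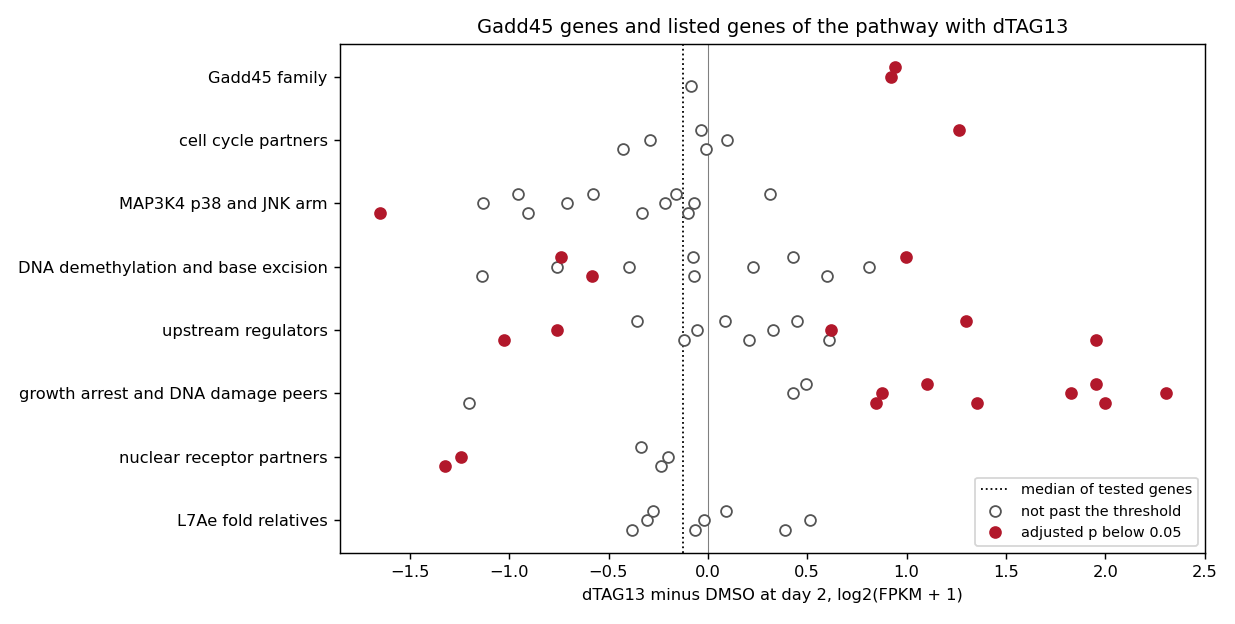
Difference between dTAG13 and DMSO at day 2 on the log2(FPKM + 1) scale (x axis) for the Gadd45 genes and for the tested genes of each list (y axis); filled points passed an adjusted p of 0.05 in limma, open points did not, and the dotted line is the median of all tested genes. In the growth arrest and DNA damage list 8 of 11 points were called, from 0.85 to 2.31, and Gadd45b and Gadd45g lie among them in size while Gadd45a does not.

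At day 6 against day 2, averaged over OE and EV, Map3k4 rose by 0.59 (SE 0.09, limma, adjusted p = 0.000566), at 30.5 ± 5.97 FPKM at day 6 and 19.7 ± 2.21 FPKM at day 2 (SD, n = 4 each). It is the kinase that Gadd45 proteins activate, and in its list of 12 genes 3 rose and 2 fell. Cdkn1a rose by 0.54 (SE 0.09, limma, adjusted p = 0.000801), while 3 of the 6 cell cycle partners fell. The number of partners called was 1 under quantile normalization, 2 without day 2 OE replicate 1 or day 6 OE replicate 2, and 6 without the first dTAG13 library, which also left 8 called in the Map3k4 list. The p53 gene Trp53 fell by 0.77 (SE 0.08, limma, adjusted p = 8.29e-05) and Myc by 3.21 (SE 0.20, limma, adjusted p = 3.78e-06), and of 13 regulators 2 rose and 3 fell. Of the 11 growth arrest and DNA damage genes 5 rose and 1 fell, led by Ddit4 at 2.55 and Ddit3 at 1.89, and the number called was 3 without day 2 EV replicate 1. Of the 12 DNA demethylation genes 3 rose and 1 fell, and the number called ran from 1 without day 6 OE replicate 2 to 7 without the first dTAG13 library. Of the 8 L7Ae fold relatives 6 fell and 0 rose, led by the snoRNP gene Nhp2 at -1.31 (242 ± 6.37 FPKM at day 6 and 607 ± 83.2 FPKM at day 2). The number of relatives called was 4 under quantile normalization, under median-ratio scaling and with no trend in the prior. It was 7 with sample quality weights and with only the groups compared. The counts of all these lists stand beside 24.1% of tested genes called higher and 19.4% called lower.

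In OE against EV the genes of the lists that passed are set beside the shares over all tested genes. These were 1.92% called higher and 1.79% lower at day 6, and 0.44% higher and 0.406% lower at day 2. The mitotic kinase gene Aurka rose at day 6 (0.43) and at day 2 (0.56). At day 6 the growth arrest genes Plk2 (-1.01), Sesn2 (-0.96) and Btg2 (-0.91) fell and 0 of 11 rose, and at day 2 Plk2 (-1.03) fell and the stress gene Trib3 (1.96) rose. Cdkn1a fell by 0.71 at day 2 (limma, adjusted p = 0.0321), at 24.3 and 21.8 FPKM in OE and 39.7 and 36.9 FPKM in EV, and stood at 0.24 at day 6. At day 6 Egr1 (-1.29) and Myc (-1.37) fell among 13 regulators. None of these calls held in every fit with a library left out. The Map3k4 arm, the DNA demethylation genes, the nuclear receptor partners and the L7Ae relatives had 0 genes past the threshold in limma at either day. Over all tested genes 3.72% were called at day 6 and 0.846% at day 2, so 0 in lists this short is not read as a result. At an unadjusted p under 0.05 in limma there were 2173 genes of the table at day 6 and 1483 at day 2.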

How the data were processed

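Poly(A) RNA of 12 libraries in 6 groups of 2 was measured by the authors. The deposited values are FPKM per gene, and per the submitters' processing notes the tools were FastQC 0.10.1, Trim Galore 0.6.3, cutadapt, STAR 2.7.6a and Cufflinks 2.2.1 on mm10. No role or order of these tools is given. The digits of the deposited FPKM values show that 1 had been added (90.1% of values between 1.1 and 2 carry 7 or more digits, against 0% between 2 and 10), and it was subtracted. Depth per library is not given in the sources used here, so no counting error can be given; summed FPKM was 550230 to 673435. One dTAG13 library's title is spelled differently, and its treatment label was used.

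The 12059 genes that reached 1 FPKM in 2 or more libraries were fitted on log2(FPKM + 1) with limma 3.58.1 in R 4.3.3, over all 6 groups with a trended prior, and p-values were adjusted by Benjamini-Hochberg with a threshold of 0.05. The fit had 6 residual degrees of freedom and was tested on simulated data. Alternatives were other pseudocounts, filters, scalings, priors, weights and samples, a replicate block, and each library left out. With a library left out its group keeps a single library, and the spread is then estimated from the other groups. Named genes were the members, in each list up to 3 called genes with the largest change, and the 4 genes most correlated with each member. The members, lists and tests were chosen with earlier results of these data known. Positions are from GENCODE M21, and promoter windows from RefSeq on GRCm38.p6. The listed gene Snu13 stands as Nhp2l1 in the table.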

Additional observations from a re-analysis of the deposited data

Results flagged for a closer look

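Some genes of the family and its lists differed between OE and EV in opposite directions at the 2 days, with every OE library on one side of the EV libraries at day 6 and on the other at day 2. The difference between the days was not tested, and Gadd45b and Gadd45g were chosen for it. With 2 libraries a group such a split can arise by chance, and its share over all tested genes was not counted. Nothing is therefore read from the number of genes named here. Gadd45b stood at 1.45 at day 6 and -0.55 at day 2 on the log2(FPKM + 1) scale, and Gadd45g at 1.21 and -1.29. Cdkn1a, which encodes p21, stood at 0.24 at day 6 and -0.71 at day 2. The other genes ran the opposite way: Apex1 (base excision) stood at -0.21 at day 6 and 0.49 at day 2, Egr1 at -1.29 and 0.32, Myc at -1.37 and 0.33, Rarg at -0.98 and 0.12, Rpl7a at -0.15 and 0.40, and Sesn2 at -0.96 and 0.28.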

How the results depend on the processing

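Over 10 alternatives and each left-out library, Gadd45b and Gadd45g stayed above 0 with dTAG13 and at day 6 against day 2, and their day 6 rises passed in all of them (1.43 to 1.72 for Gadd45b and 0.75 to 1.06 for Gadd45g). With dTAG13, limma gave Gadd45b 0.92 (adjusted p = 0.305) and Gadd45g 0.94 (adjusted p = 0.509) with sample quality weights, and the same values (adjusted p = 0.378 and 0.271) with only the groups compared. With a library left out the dTAG13 differences ran from 0.70 to 1.14 for Gadd45b, from 0.90 to 0.98 for Gadd45g and from -0.17 to 0.0067 for Gadd45a, which changed sign without dTAG13 replicate 2; at day 6 against day 2 Gadd45a ran from -0.0052, without day 6 EV replicate 2, to 0.21. Among the OE descriptions, Gadd45g at day 2 stood at -1.03 with a pseudocount of 5. With day 6 EV replicate 1 or 2 left out, the day 6 values were 0.55 and 0.98 for Gadd45a and 1.52 and 0.90 for Gadd45g. The cause of these shifts was not tested.

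The number of genes called with dTAG13 was 1473 (32.8% higher), 20 with sample quality weights, 0 with only the groups compared, beside 3796 at an unadjusted p under 0.05 in limma over all groups, and 203 to 7223 with a library left out (247 and 203 without DMSO replicate 1 or 2, 2796 and 7223 without dTAG13 replicate 1 or 2). The share called higher was 50.9% under quantile normalization, 54.3% under median-ratio scaling and 26.8% without dTAG13 replicate 1. For day 6 against day 2 the number called was 5244, 7907 with weights, 7889 with only the groups compared and 3824 to 7988 with a library left out, the highest without dTAG13 replicate 1. For OE it was 448 at day 6, with 1048 under quantile normalization, 3897 with weights, 3495 with only the groups compared and 18 (without day 6 EV replicate 2) to 3044 (without dTAG13 replicate 1) with a library left out. For OE at day 2 it was 102, with 188 under quantile normalization, 171 under median-ratio scaling, 55 with no trend in the prior, 1020 with weights, 1382 with only the groups compared and 1 (without day 2 OE replicate 2) to 1688 (without dTAG13 replicate 1) with a library left out.

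The replicate block changed no call of a member: with dTAG13 the adjusted p in limma was 0.00907 for Gadd45b (0.92), 0.0263 for Gadd45g (0.94) and 0.779 for Gadd45a (-0.08). Over 15 pairs of groups the correlation of the replicate 1 minus replicate 2 differences ran from -0.135 to 0.252, with 4 pairs over 0.1. Correlations this weak cannot settle whether the numbers pair the samples, and no pairing was used in the main fit.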
